A study of Mus musculus with 12 samples.

Results

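The genes described are those of the cytosolic ribosomal proteins, chosen by symbol alone: every probe set with a single platform symbol that starts with Rpl, Rps, Rplp or Rpsp followed by a digit, without the Rps6k kinases and without names containing -ps. This gave 214 probe sets for 62 genes, of 19938 genes with a single-symbol probe set in all. No measured value entered the symbol pattern itself, but this group of genes was chosen with earlier results of these data known. Only the brightest probe set of a gene, by its mean over all arrays, was used for it. By their textbook roles, 30 of the 62 genes code for proteins of the large subunit, 20 for proteins of the small subunit and 3 for the stalk. Another 7 are like-named paralogs (Rpl3l, Rpl7l1, Rpl10l, Rpl32l, Rpl39l, Rps4l and Rps27l). The remaining 2, Rps19bp1 and Rps23rg1, carry the name but are not ribosomal proteins. Another 20 ribosomal protein symbols share their probe sets with other symbols (Rpl3, Rpl11, Rps26 and Rps27 among them) and are not analysed here.

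The samples were total RNA from mouse embryonic fibroblasts on 12 Affymetrix arrays, in 4 groups of 3: wild type and MLL1-KO, the knockout of the histone H3 lysine methyltransferase MLL1 (gene Kmt2a), each at CT18 and CT30, that is 18 h and 30 h after serum shock. All groups grew in medium with 5% FBS and 5% NCS and received the same shock with 50% horse serum for 2 h. The labels do not give the knockout allele, the number of embryos or lines, or whether the replicates came from different cultures, and a p-value here therefore covers array-to-array spread that may be technical. Kmt2a itself had intensities of 2265, 2824 and 2100 in wild type and 2120, 2174 and 1960 in knockout at 18 h, which overlap. At 30 h it had 2129, 2155 and 2069 against 1338, 1367 and 1584. It fell by 0.57 on the log2 scale there (standard error 0.098, adjusted p = 0.000111), and the labels do not say whether its probe set lies in the deleted part, so the 18 h value does not check them.

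The cytosolic ribosome joins a small subunit, which reads the mRNA, and a large subunit, which forms the peptide bond. In mammals the mRNAs of the ribosomal proteins form a class of their own: most begin with a C followed by an unbroken run of pyrimidines, the terminal oligopyrimidine (TOP) motif, through which mTOR and LARP1 govern how well they are translated. In fibroblasts, serum is a classical stimulus for ribosome production. The assembly factors that build the subunits in the nucleolus, many of them known targets of Myc, are encoded by a separate set of genes.

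The start regions of 4 members that were higher in knockout are shown because they carry a long run of C and T near the annotated start, and Rps3 because it was among the largest differences and holds none as long. All are RefSeq sequences of assembly GRCm38.p6, 5′ to 3′ on the gene's strand, from 50 bases before the annotated start to 30 from it on, and capitals mark the longest unbroken run of C and T.
Rplp2, chr7:141447601-141447680, plus strand: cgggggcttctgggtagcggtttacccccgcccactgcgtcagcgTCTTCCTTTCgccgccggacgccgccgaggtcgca
Rpl27a, chr7:109519145-109519224, plus strand: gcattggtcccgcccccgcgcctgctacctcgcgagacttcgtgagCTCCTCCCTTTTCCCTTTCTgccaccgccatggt
Rpl5, chr5:107900478-107900557, plus strand: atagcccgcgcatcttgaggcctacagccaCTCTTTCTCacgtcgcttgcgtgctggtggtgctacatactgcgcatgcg
Rpl26, chr11:68901516-68901595, plus strand: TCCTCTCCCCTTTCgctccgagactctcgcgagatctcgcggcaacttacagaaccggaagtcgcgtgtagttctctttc
Rps3, chr7:99483680-99483759, minus strand: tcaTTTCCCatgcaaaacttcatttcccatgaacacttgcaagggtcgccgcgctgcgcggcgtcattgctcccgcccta

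Within the bases shown, the run is 10 bases long in Rplp2, 20 in Rpl27a, 9 in Rpl5 and 14 in Rpl26, against 6 in Rps3. That of Rpl26 starts at the first base shown and may be longer. In Rpl26 and Rpl5 the capitals begin at positions -50 and -20 and lie before the annotated start, so they do not mark the first bases of those mRNAs as annotated. The annotated start need not be the base where these mRNAs begin, so runs were counted anywhere within 50 bases of it. Of the 62 genes, 50 matched a RefSeq promoter by symbol, and 37 of them, 74%, had a run of at least 8 pyrimidines there. Among the large-subunit, small-subunit and stalk genes the count was 32 of 42, or 76.2%. Over all 27025 promoters of that table the share was 35.7%, and over 68 mitochondrial ribosomal protein genes it was 32.4%. The 7-base motif CCGGAAG, searched on both strands of the 300 bases, stood in 35.7% of the same 42 promoters, in 35.3% of the mitochondrial ones and in 9.1% of all. TATAAA stood in 9.5% of them and in 14.2% of all. The E-box CACGTG stood in 9.5% and 7.2%. A match is a description of the letters and not a bound site.

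At 18 h the ribosomal protein genes were higher in knockout cells as a group, with modest differences. Of the 60 genes tested, 41 were called higher (adjusted p under 0.05 over all 13956 genes tested), 1 was called lower and 18 were not called. Over all genes tested, 26.3% were called higher and 33.8% lower, against 68.3% and 1.67% of the ribosomal protein genes. Their median log2 difference was 0.30 against -0.03 over all genes tested, and 52 of 60 had a positive value. In 36 genes every knockout array lay above every wild-type array, where 28% of all genes did so, and in 1 gene every knockout array lay below, where 35.2% did. Among the 3913 genes at least as bright as 90% of the members, 1274 (32.6%) were higher and 1498 (38.3%) lower, with a median of -0.04. In bulk RNA, fewer cells of a type and less RNA per cell cannot be told apart. Leaving out any 1 array gave 30 to 47 genes called higher, the fewest without knockout replicate 3.

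**Figure D1:**
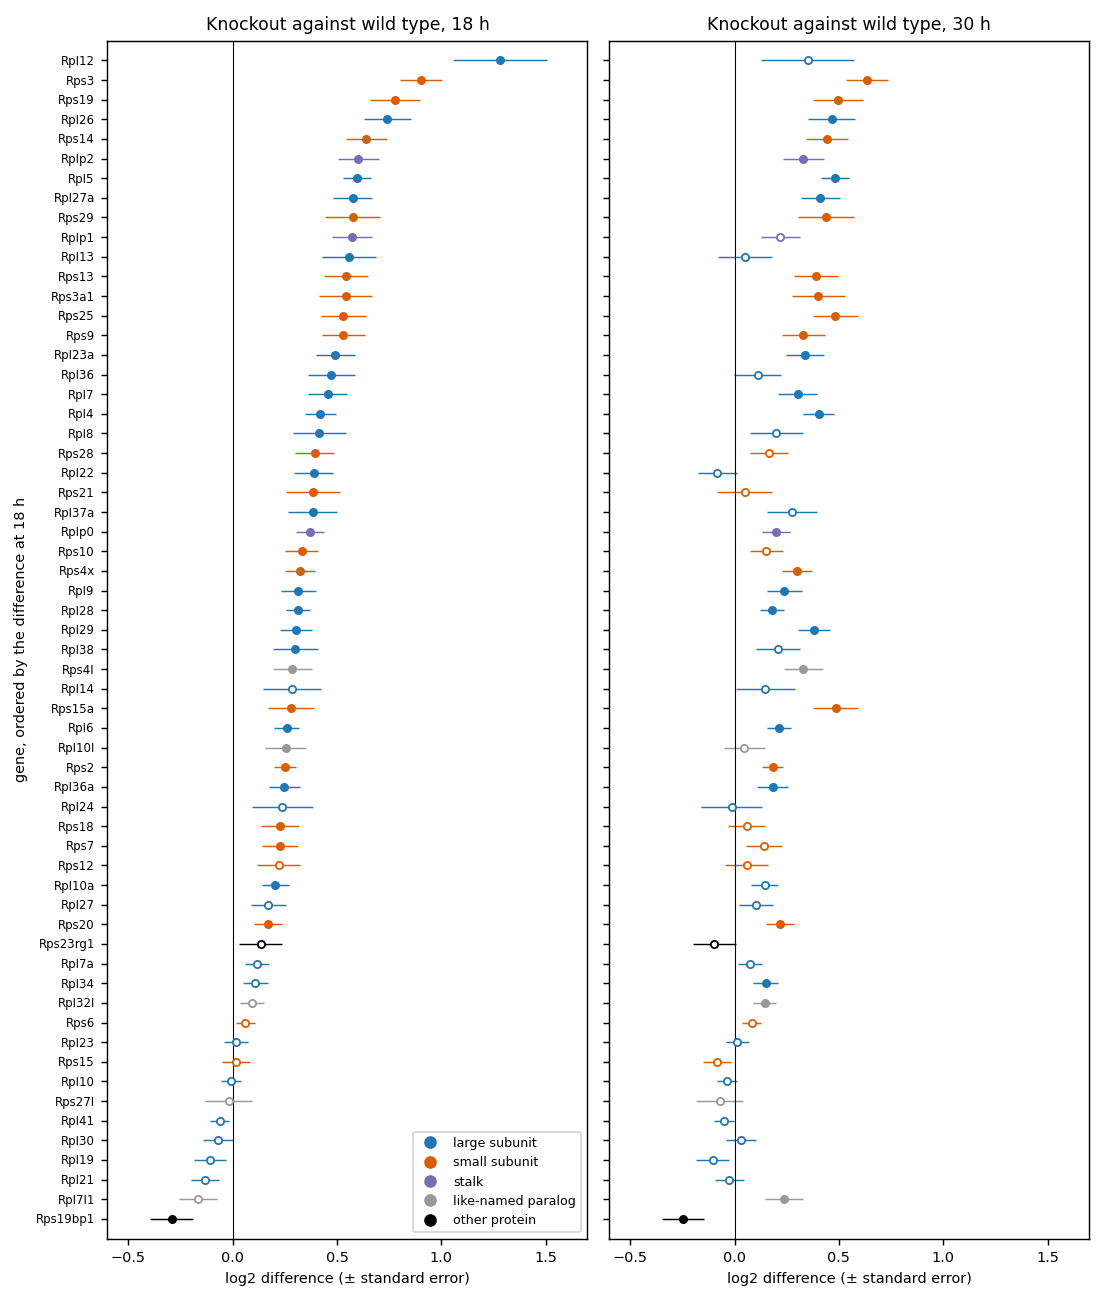
Log2 difference of knockout minus wild type (horizontal axis, points with standard errors) for the 60 tested genes at 18 h (left) and 30 h (right), in the order of the 18 h value; filled points are called at adjusted p under 0.05, open points are not, and colours give the role. At 18 h 52 of 60 points lie right of 0 and at 30 h 50 of 60 do, with Rpl12 and Rps3 the farthest right at 18 h.

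All 3 stalk genes were called higher at 18 h. The stalk is the flexible arm of the large subunit that recruits elongation factors, built from Rplp0 and pairs of the acidic proteins Rplp1 and Rplp2. Rplp2 had intensities of 1364, 1145 and 1329 in wild type and 1902, 1978 and 1956 in knockout. Its knockout arrays lay close together and all above the wild-type arrays, 1.52-fold higher (log2 difference 0.60, standard error 0.099, adjusted p = 5.22e-05). Rplp1 had 6908, 7037 and 9216 against 11691, 10866 and 11597, a log2 difference of 0.57 (adjusted p = 5.43e-05). Rplp0 had 8762, 8772 and 10764 against 11768, 12170 and 12460, a difference of 0.37 (adjusted p = 0.000142). In both, wild-type replicate 3 stood above the other wild-type arrays and still below the knockout ones.

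Of the 30 large-subunit genes, 19 were called higher at 18 h and none lower, with a median of 0.30 and a range from -0.13 to 1.28. No large-subunit gene was lower at an unadjusted p under 0.05 either, where 4930 of all 13956 genes tested were. The largest difference was in Rpl12, whose protein sits at the base of the stalk. Rpl12 had intensities of 414, 486 and 474 in wild type and 666, 1368 and 1591 in knockout. The groups did not overlap, but the first knockout array stood far below the other two, and the log2 difference of 1.28 had a standard error of 0.22 (2.43-fold, adjusted p = 9.46e-05). Rpl26, whose product is known in human cells to bind the p53 mRNA, had 1860, 1854 and 2253 against 2865, 3232 and 3956. This was a log2 difference of 0.74 (standard error 0.11, adjusted p = 2.24e-05).

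Rpl5, which with Rpl11 and the 5S rRNA forms the particle that can also bind Mdm2, had 5427, 5663 and 6024 in wild type and 7792, 8696 and 9431 in knockout. Its log2 difference was 0.59 (standard error 0.067, adjusted p = 7.33e-07), and the groups were far apart for their spread. Rpl27a had 4367, 4247 and 4694 against 5901, 6582 and 7444, a log2 difference of 0.58 (adjusted p = 4.43e-05). Rpl11 shares its probe sets with other symbols and is not analysed here. The other 15 large-subunit genes called higher ran from 0.21 for Rpl10a to 0.56 for Rpl13.

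Of the 20 small-subunit genes, 17 were called higher and none lower, with a median of 0.36, and all 20 had positive values. At an unadjusted p under 0.05 the count was 18 higher and none lower, where 3856 and 4930 of all 13956 genes tested were. Rps3, which lies at the mRNA entry site, had intensities of 2908, 2893 and 3595 in wild type and 5479, 5694 and 6376 in knockout. The lowest knockout array was well above the highest wild-type array, and the log2 difference was 0.90 (1.87-fold, standard error 0.10, adjusted p = 6.31e-07). Rps19, the gene most often mutated in Diamond-Blackfan anaemia in humans, had 1612, 1273 and 1848 against 2429, 2657 and 2998. Its log2 difference was 0.78 (standard error 0.12, adjusted p = 2.55e-05), with no overlap. Rps14, whose single-copy loss marks the human 5q deletion syndrome, had 2051, 2170 and 2408 against 3225, 3320 and 3827. This was a difference of 0.64 (standard error 0.10, adjusted p = 2.92e-05). Rpsa, a small-subunit protein gene that the naming pattern misses, had 2853, 3032 and 3483 against 5489, 5852 and 6261, a difference of 0.91 (adjusted p = 2.3e-06). Fau, whose product is cleaved to the small-subunit protein eS30, had a difference of 0.38 (adjusted p = 0.000606). At 30 h 1 of these 2 genes was called higher, and their differences were 0.16 and 0.50, the smaller named first.

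**Figure D2:**
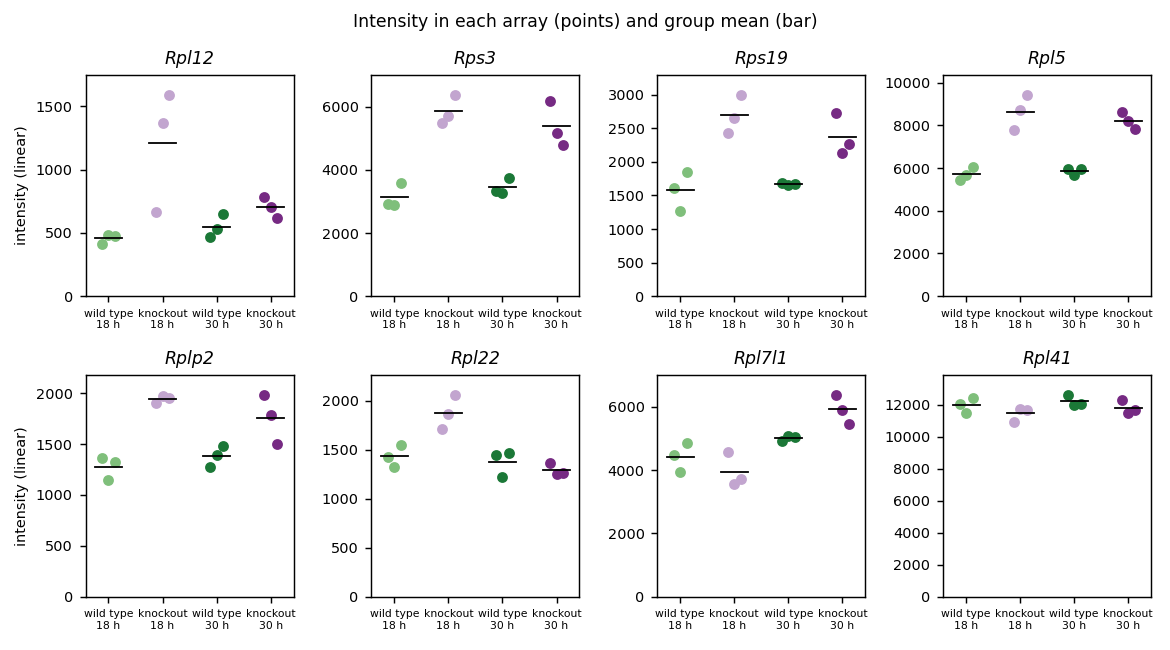
Linear intensity (vertical axis, from 0) of 8 members in each of the 12 arrays (points, replicates in order) with the group mean (bar). Rps3, Rps19, Rpl5 and Rplp2 have every knockout array above every wild-type array at both times, Rpl22 at 18 h only, and Rpl41 lies between 10963 and 12627 in all arrays.

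At 30 h the group was again higher in knockout, with smaller differences. Of 60 genes, 29 were called higher and 1 lower, against 24.3% and 28.6% of all genes tested, and the median was 0.18 against 0.02. Positive values were found for 50 of 60. In 33 genes every knockout array lay above every wild-type array, where 28.7% of all genes did so, and in no gene did every knockout array lie below, where 32.8% did. By role, 12 of 30 large-subunit, 12 of 20 small-subunit, 2 of 3 stalk and 3 of 5 tested like-named genes were higher, and Rps19bp1 was lower. The count depended on the arrays and the scaling: it was 16 without knockout replicate 1 at 30 h and 18 with array medians set equal, while the medians in those settings were 0.13 and 0.16.

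Rps3 had the largest difference at 30 h, with 3341, 3256 and 3738 in wild type and 6174, 5177 and 4789 in knockout. Its log2 difference was 0.63 (standard error 0.10, adjusted p = 4.26e-05). Rpl5 had 5969, 5675 and 5931 against 8600, 8184 and 7810, a difference of 0.48 with the smallest adjusted p of the group, 1.04e-05. Rps19 had 1684, 1651 and 1670 against 2719, 2127 and 2262, a difference of 0.49 (adjusted p = 0.00212). The 3 wild-type arrays of Rps19 agreed closely while its knockout arrays were spread, with replicate 1 the highest. Rps25, a small-subunit protein that several viral internal ribosome entry sites require, had 4316, 3844 and 4315 against 6744, 5909 and 4920, a difference of 0.48 (adjusted p = 0.00125). Rps15a had 2105, 2016 and 1967 against 3213, 2744 and 2607, also a difference of 0.48 (adjusted p = 0.00123). In Rps15a the groups overlapped at 18 h, with a difference of 0.28 (adjusted p = 0.0353). Rpl26, Rps14 and Rps29 had 30 h differences of 0.47, 0.44 and 0.44 (adjusted p = 0.00211, 0.0012 and 0.0103). Without knockout replicate 1 at 30 h, Rps29 had 0.27 (adjusted p = 0.0665).

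Of the 60 genes, 26 were called higher at both times, 15 at 18 h only and 3 at 30 h only (Rpl34, Rpl32l and Rpl7l1). None was called in opposite directions at the 2 times in this fit. In 4 of 26 alternatives Rpl7l1 was called lower at 18 h while its 30 h call was kept. Rps19bp1 was called lower at both, though the 30 h call was lost in most alternatives, and 15 were called at neither. The differences at 18 h and at 30 h come from different arrays, but their p-values share each gene's spread estimated over all 12 arrays. Across the 60 genes, which share those arrays, the differences at both times had a Pearson r of 0.74 (Spearman rho 0.752), given as a description. The value was lower at 30 h than at 18 h in 47 of 60 genes. The difference between the genotype effects was itself called in 3 genes, 1 higher at 30 h and 2 lower, where 10.2% and 10.1% of all genes tested were called. Its median was -0.11 over the 60 genes and 0.04 over all genes tested. The median over the 60 genes was -0.02 without knockout replicate 3 at 18 h and -0.04 without knockout replicate 3 at 30 h, and 0 to 5 genes were called lower when single arrays were left out. The 5 came without wild-type replicate 3 at 18 h or without knockout replicate 1 at 30 h.

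The 3 genes with a called difference between the times were Rpl12, Rpl22 and Rpl7l1. Rpl12 had 465, 533 and 649 in wild type and 787, 704 and 614 in knockout at 30 h. These overlap, with a difference of 0.35 (adjusted p = 0.206). The interaction value, the genotype effect at 30 h minus that at 18 h, was -0.93 (adjusted p = 0.0475). Rpl22, a large-subunit protein that cells can do without and that binds viral and cellular RNAs, had 1425, 1323 and 1543 against 1707, 1869 and 2058 at 18 h. That was a difference of 0.39 (adjusted p = 0.0016). At 30 h it had 1442, 1216 and 1462 against 1362, 1256 and 1258, which overlap, a difference of -0.08 (adjusted p = 0.481). Its interaction value was -0.47 (adjusted p = 0.0182).

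Among the like-named paralogs, 2 of the 5 tested were higher at 18 h and 3 at 30 h, where 26.3% and 24.3% of all genes tested were. Most of these calls depended on the settings: of 26 alternatives, the 30 h call was lost in 9 for Rpl7l1 and in 12 for Rpl32l, and the 18 h call in 3 each for Rpl10l and Rps4l. Rpl7l1, known in human cells from pre-ribosomal particles, had 4480, 3931 and 4848 in wild type and 4568, 3557 and 3726 in knockout at 18 h. These overlapped, with a difference of -0.16 (adjusted p = 0.134). In 4 of the 26 alternatives Rpl7l1 was called lower at 18 h, with -0.28 under array weights (adjusted p = 0.000629). At 30 h it had 4910, 5075 and 5056 against 6380, 5918 and 5477, a difference of 0.24 (adjusted p = 0.0375), and its interaction value was 0.40 (adjusted p = 0.0369). Its paralog Rpl7 was higher at both times, by 0.46 and 0.30 (adjusted p = 0.000395 and 0.011), the latter 0.23 without knockout replicate 1 at 30 h (adjusted p = 0.0569). Rps4l was higher at both times, by 0.28 and 0.33 (adjusted p = 0.0146 and 0.00687), as was Rps4x, by 0.32 and 0.30 (adjusted p = 0.000831 and 0.00203). Rpl10l, known from testis, had a difference of 0.25 at 18 h (adjusted p = 0.0328), or 0.15 without knockout replicate 3 (adjusted p = 0.202), while Rpl10 had -0.01 (adjusted p = 0.9). At 30 h Rpl10l had 0.05 and Rpl10 had -0.04 (adjusted p = 0.714 and 0.536). Rpl32l had 0.09 and 0.14 (adjusted p = 0.184 and 0.044). Rps27l, a p53 target in human cells, had -0.02 and -0.07 (adjusted p = 0.905 and 0.627). Rpl39l, known from testis, and Rpl3l, known from striated muscle, were under the limit for dim genes (an intensity of 175) and were not tested. Their arrays ran from 130 to 167 and from 125 to 161.

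Neither of the 2 genes that only carry the name was called higher at either time. Rps19bp1, whose product binds Rps19 and SIRT1, had 1288, 1243 and 1354 in wild type and 1023, 1041 and 1098 in knockout at 18 h, with no overlap. It fell by 0.29 on the log2 scale (standard error 0.10, adjusted p = 0.0195). At 30 h it had 1441, 1431 and 1570 against 1513, 1168 and 1086, which overlap, and it fell by 0.25 (adjusted p = 0.0498). Of 26 alternatives the 18 h call was lost in 6 and the 30 h call in 18, and the 30 h value was -0.15 without knockout replicate 3 (adjusted p = 0.248). Rps23rg1 lay between 179 and 239 in all arrays, not far above the limit for dim genes. It had differences of 0.13 and -0.10 (adjusted p = 0.288 and 0.453). At 18 h its knockout arrays, at 239, 217 and 203, all lay above its wild-type arrays, at 199, 200 and 197, as in 28% of all genes.

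In wild-type cells no ribosomal protein gene was called between 18 h and 30 h by limma, where 2.41% of all genes tested were called higher at 30 h and 1.55% lower. At an unadjusted p under 0.05, 4 were higher and none lower, where 1382 and 1175 of all 13956 genes tested were. The median was 0.08 against -0.01 over all genes tested. In 6 genes every wild-type array was higher at 30 h and in none lower, where 13.2% and 12.4% of all genes were. In knockout cells 1 gene was called higher at 30 h and 3 lower, where 20.9% and 18.4% of all genes were, and the median was -0.02 against 0.02. That median had no stable sign, at 0.05 without knockout replicate 3 at 18 h, 0.03 without knockout replicate 3 at 30 h and -0.10 without knockout replicate 1 at 30 h. The gene called higher was Rpl7l1, by 0.59 (adjusted p = 0.000102). The 3 called lower were Rpl12, which fell by 0.69 (adjusted p = 0.022), Rpl22, which fell by 0.53 (adjusted p = 0.000278), and Rpl13, which fell by 0.34 (adjusted p = 0.0451). Without knockout replicate 3 at 18 h, Rpl12 had -0.44 and Rpl13 had -0.23 (adjusted p = 0.124 and 0.216), and their calls were lost in 6 and 13 of 26 alternatives. In 3 genes, Rpl7l1 among them, every knockout array was higher at 30 h, and in 2, Rpl22 among them, every one was lower, where 24.3% and 21.9% of all genes were. The number called lower ranged from 1 to 8 when single arrays were left out. It was 8 without knockout replicate 1 at 30 h, 5 without knockout replicate 1 at 18 h and 1 without knockout replicate 2 or 3 at either time.

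The arrays of a genotype were not uniform. Each array was summarised by the median, over the 60 genes, of the log2 deviation from the gene's mean over the 12 arrays. At 18 h this was -0.20, -0.22 and -0.04 in wild type and -0.001, 0.14 and 0.29 in knockout. At 30 h it was -0.07, -0.13 and -0.04 in wild type and 0.26, 0.08 and 0.003 in knockout. All 6 knockout arrays lay above all 6 wild-type arrays, but knockout replicate 1 at 18 h and knockout replicate 3 at 30 h lay near the wild-type values. The same medians over all genes tested lay between -0.04 and 0.04. Without knockout replicate 1 and wild-type replicate 3 at 18 h together, a setting chosen after the data were seen, 48 genes were called higher at 18 h and 1 lower, with a median of 0.41. The members' median replicate SD was 0.118, 0.073, 0.134 and 0.146 on the log2 scale in wild type at 18 h and 30 h and in knockout at 18 h and 30 h. Over all genes tested it was 0.101, 0.081, 0.106 and 0.100.

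**Figure D3:**
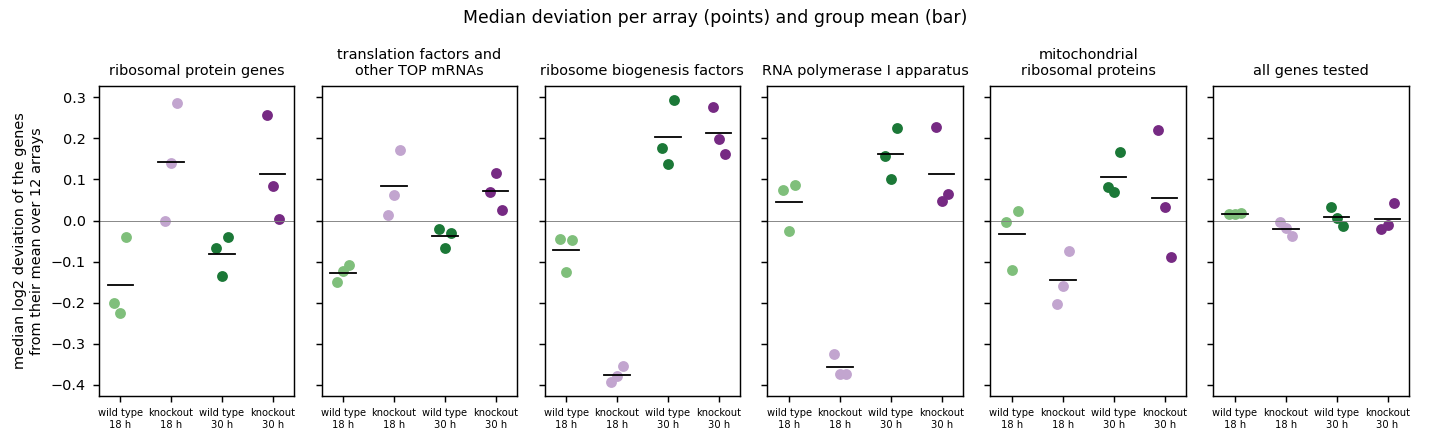
Median log2 deviation of a gene list from the genes' means over 12 arrays (vertical axis), 1 point per array with the group mean as a bar, for the ribosomal protein genes, 4 related lists and all genes tested. The ribosomal protein points of the 6 knockout arrays lie above those of the 6 wild-type arrays, while the biogenesis and polymerase I points of knockout at 18 h lie far below the rest.

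Some cell type markers differed between the genotypes. Over all genes tested, 26.3% were called higher and 33.8% lower at 18 h, and 24.3% and 28.6% at 30 h. At 18 h, 4 of 11 tested fibroblast markers were higher in knockout (Dcn by 3.74, Col1a1 by 0.52) and 5 lower (Pdgfra fell by 3.22 and Col3a1 by 2.53). Their summed intensity was 60399 to 64355 in wild type and 58731 to 60153 in knockout. Of 5 neural markers, 4 were tested and 3 were higher at each time, and their summed intensity was 746 to 1004 in the wild-type arrays and 5852 to 6815 in the knockout arrays. Of 8 macrophage and blood markers, 4 were tested and 1 was higher at each time (Cd68 by 0.88 at 18 h, Cd14 by 0.66 at 30 h), while Ptprc and Adgre1 were under the limit for dim genes. The summed intensity of the macrophage and blood markers at 18 h was 2038 to 2127 in wild type and 2272, 3586 and 3924 in knockout. It was lowest in replicate 1, which also had the lowest ribosomal protein median of the knockout arrays at that time. Among these knockout arrays the endothelial and muscle sums were also lowest in replicate 1, while the fibroblast, neural and epithelial sums were highest there. At 30 h the macrophage and blood sum was 1773 to 1925 in wild type and 1766 to 1924 in knockout. No endothelial marker reached the limit, 1 of 4 tested epithelial markers was higher at 18 h, and neither of 2 tested muscle markers was. The part of these in the ribosomal protein result was not tested.

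Dimmer probe sets had the larger median differences, which is a description with no test. Across the 60 genes, signal and 18 h difference had a Pearson r of -0.336 (rho -0.401), and at 30 h -0.0853 (rho -0.234). The dimmer 30 genes had medians of 0.39 and 0.30 at 18 h and 30 h, and the brighter 30 had 0.24 and 0.15. Of the 9 members with a mean intensity of 10000 or more, 4 were higher at 18 h and 4 at 30 h. Over all genes tested the shares were 26.3% and 24.3%. Among the genes at least as bright as 90% of the members they were 32.6% and 29.2%. Of the 53 tested large-subunit, small-subunit and stalk genes, 13 were called higher at neither time. Some of these, named after their values were seen, had 95% intervals at 18 h that ended below the members' median difference of 0.30. Rpl41, the shortest ribosomal protein, had 12066, 11473 and 12410 in wild type and 10963, 11780 and 11676 in knockout at 18 h, a difference of -0.06 (95% interval -0.16 to 0.04). Rps6, the substrate of the S6 kinases, had a difference of 0.06 (95% interval -0.04 to 0.16), and Rpl19 of -0.11 (-0.27 to 0.06). The brightest of these, Rps6, had a mean of 14026. How far such bright probe sets can still show a difference was not tested.

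Probe sets of the same gene mostly had the same sign but could differ in size. Of the 62 genes, 24 had 1 probe set and the most was 14. In the 38 genes with further probe sets at or above the limit for dim genes, these numbered 152, and 134 of them had a positive value at 18 h and 134 at 30 h. Their medians were 0.33 and 0.15. In 35 of the 38 genes all of them had the sign of the chosen probe set at 18 h. The chosen probe set of Rpl23 had 0.02 at 18 h and its other one -0.40. Those of Rps2 and Rps25 had 0.25 and 0.53, with other probe sets up to 0.74 and 0.91. Rps4l had 0.28 and, in its dimmer probe set, 0.03. Ribosomal protein genes have many processed copies elsewhere in the genome with nearly the same sequence. The annotation does not say which copies a probe set also measures, so the probe sets of a gene are not independent and a value for a gene may include its copies.

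**Figure D4:**
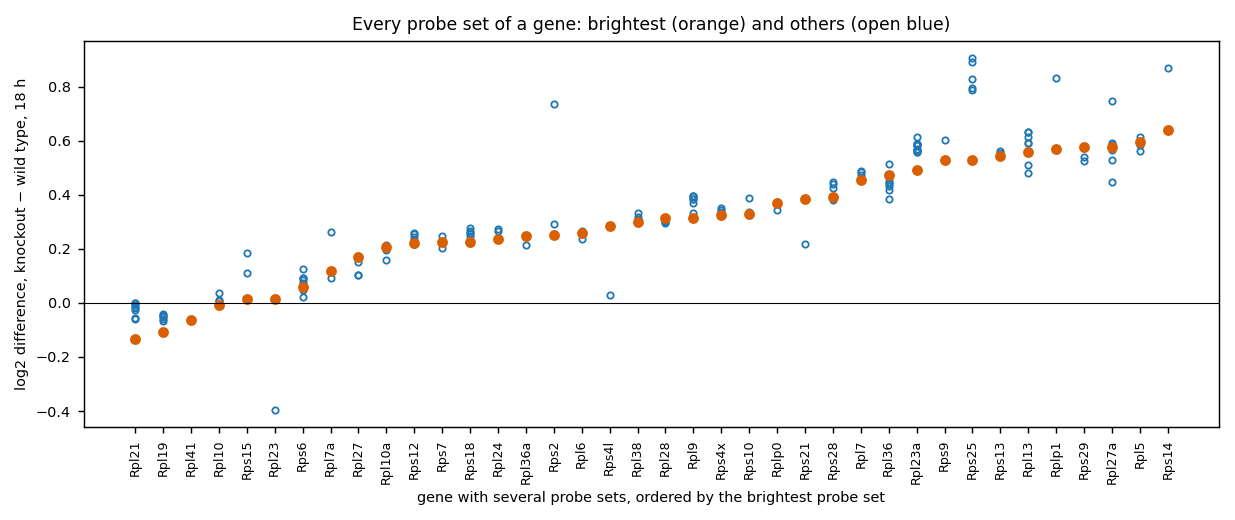
Log2 difference of knockout minus wild type at 18 h (vertical axis) for every probe set at or above the limit for dim genes, in the genes with several listed probe sets, ordered by the brightest one (filled orange); the others are open blue points. In 35 of 38 genes the other probe sets all have the sign of the brightest.

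The neighbouring gene groups had other counts, which stand beside the 26.3% higher and 33.8% lower of all genes tested at 18 h and the 24.3% and 28.6% at 30 h. No test set the lists against each other. Of 47 tested ribosome biogenesis factors, 5 were higher and 29 lower in knockout at 18 h, with a median of -0.37, and at 30 h 11 were higher and 10 lower, with a median of -0.03. Ddx21, a nucleolar RNA helicase, had 2510, 2444 and 2306 in wild type and 1319, 1064 and 971 in knockout at 18 h, and fell by 1.11 (adjusted p = 1.65e-08). Rrs1, an assembly factor for the 5S particle, fell by 1.02 (adjusted p = 3.49e-05), while Imp3 and Eif6 were higher by 0.74 and 0.49 (adjusted p = 5.73e-06 and 0.000514). At 30 h Fbl, the methyltransferase of box C/D particles, and Eif6 were higher by 0.61 and 0.60, and Riok1 and Sbds fell by 0.37 and 0.31 (adjusted p = 1.32e-06, 9.65e-05, 0.00101 and 0.00277). Between 18 h and 30 h, 12 of the 47 rose and none fell in wild type, and 39 rose and 2 fell in knockout, with medians of 0.26 and 0.53. Over all genes tested, 2.41% rose and 1.55% fell in wild type, and 20.9% rose and 18.4% fell in knockout. In the same comparisons the ribosomal protein genes had medians of 0.08 and -0.02. The genotype effect of 23 biogenesis factors was called higher at 30 h than at 18 h and that of 1 lower. Over all genes tested these shares were 10.2% and 10.1%. Leaving aside the 2-fold requirement, the alternatives gave 26 to 30 lower at 18 h, 2 to 25 risen in wild type and 10 to 27 with a higher effect at 30 h. The 2 came without wild-type replicate 3 at 30 h and the 10 with array medians set equal, and the 30 h median ran from -0.08 to 0.03.

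The E-box stood in 22.5% of the 40 matched biogenesis promoters, against the 9.5% given above for ribosomal protein genes, and a run of 8 pyrimidines in 32.5%. The E-boxes of 2 biogenesis genes that were lower at 18 h are shown in capitals for contrast with the pyrimidine runs above, with 30 bases on each side.
Nop2, chr6:125131793-125131858, plus strand: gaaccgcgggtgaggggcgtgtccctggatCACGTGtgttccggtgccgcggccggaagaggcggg
Imp4, chr1:34439678-34439743, plus strand: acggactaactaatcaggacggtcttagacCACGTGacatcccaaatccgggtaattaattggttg
Nop2, an rRNA methyltransferase, fell by 0.68 at 18 h (adjusted p = 3.08e-05) and Imp4, of the small-subunit processome, by 0.67 (adjusted p = 0.000507). Among the 42 ribosomal protein genes with a promoter, 23 of 32 with the pyrimidine run were higher at 18 h, with a median of 0.31, and 7 of 10 without it were, with a median of 0.35. At 30 h the counts were 15 of 32 and 5 of 10, with medians of 0.18 in both.

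**Figure D5:**
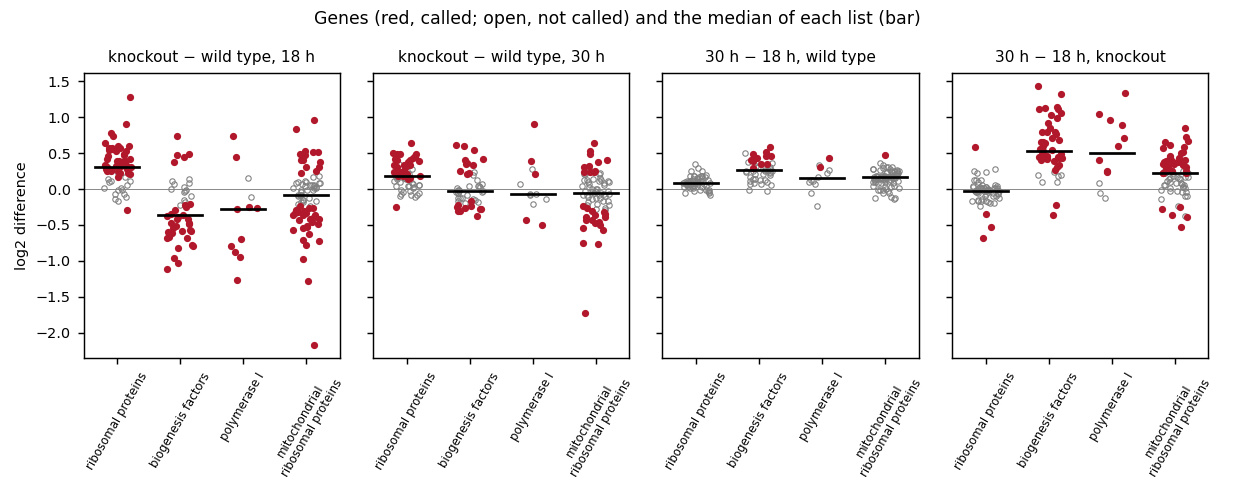
Log2 difference (vertical axis) of each tested gene (points) in 4 lists for 4 comparisons; red points are called at adjusted p under 0.05, open points are not, and bars are list medians. The ribosomal protein medians are 0.30, 0.18, 0.08 and -0.02, and those of the biogenesis factors are -0.37, -0.03, 0.26 and 0.53.

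Of the 12 genes of the RNA polymerase I apparatus, which transcribes the rRNA genes, 2 were higher and 8 lower at 18 h and 3 were higher and 2 lower at 30 h. Taf1a and Ubtf fell by 1.26 and 0.94 at 18 h (adjusted p = 1.01e-08 and 6.5e-07), and Taf1d and Polr1c were higher by 0.74 and 0.44 (adjusted p = 1.42e-06 and 0.000216). At 30 h Taf1d and Polr1b were higher by 0.90 and 0.39, and Taf1a and Rrn3 fell by 0.50 and 0.43 (adjusted p = 1.55e-07, 0.000658, 0.000483 and 1.42e-05). Of 6 dedicated chaperones of single ribosomal proteins, 2 were higher and 3 lower at 18 h. The chaperone of Rps26, Tsr2, fell by 1.02 and 0.97 at 18 h and 30 h (adjusted p = 2.15e-08 and 4.93e-08), and Pdcd2l was higher by 0.83 and 0.80 (adjusted p = 3.13e-07 and 6.42e-07).

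Translation factors and other genes known for TOP mRNAs had 9 of 15 tested members higher and 1 lower at 18 h, and 6 higher and 1 lower at 30 h, with medians of 0.12 and 0.08. Eif3k and Eef1b2 were higher by 0.57 and 0.56 at 18 h (adjusted p = 0.000108 and 0.000182), and Npm1 and Eif3k by 0.53 and 0.43 at 30 h (adjusted p = 0.000275 and 0.00183). The 1 lower gene was Eif3e, which fell by 0.43 and 0.61 (adjusted p = 0.000789 and 3.29e-05). Of 16 tested genes of the mTOR pathway and related regulators, 3 were higher and 7 lower at 18 h and 2 higher and 6 lower at 30 h. Eif4ebp1 and Eif4e were higher at 18 h by 0.69 and 0.63 (adjusted p = 1.96e-05 and 8.4e-06), and Mlst8 and Eif4ebp2 fell by 0.56 and 0.49 (adjusted p = 3.82e-05 and 3.57e-05). At 30 h Eif4e was higher by 0.57, and Rictor and Rheb fell by 0.61 and 0.45 (adjusted p = 3.52e-05, 0.000132 and 1.73e-05). Of 77 mitochondrial ribosomal protein genes, 14 were higher and 29 lower at 18 h and 11 higher and 19 lower at 30 h, with medians of -0.08 and -0.05. As shares these were 18.2% higher with 37.7% lower at the first time, then 14.3% with 24.7%. The alternatives other than the 2-fold requirement gave 19 to 36 lower at 18 h and 4 to 15 higher at 30 h, with 4 from array medians set equal and 5 without wild-type replicate 2 or knockout replicate 1 at 30 h. Mrps6 fell by 2.17 and 1.73 (adjusted p = 1.54e-10 and 3.74e-09), and Mrpl45 was higher by 0.84 and 0.52 (adjusted p = 5.37e-07 and 0.000124).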

How the data were processed

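Total RNA (100 ng) was labelled and hybridised to 12 Affymetrix arrays. The authors deposited a linear intensity for each probe set, from Affymetrix Expression Console 1.1 with the PLIER 2.0 algorithm, per the submitters' processing notes. How arrays were normalized to one another is not given there. Of 35557 probe sets, 21789 have 1 symbol in the platform annotation, 1621 several (239 with a ribosomal protein among them) and 12147 none. Groups came from the labels. The log2 of the deposited intensity plus 16 was analysed, so changes of dim genes are understated. The brightest probe set stood for its gene. Of 19938 genes, the 13956 whose mean reached the 30th percentile (log2 7.58) were tested. A model of 4 group means was fitted to the 12 arrays in limma 3.58.1 (R 4.3.3), with lmFit and with eBayes using an intensity trend, which gave 8 residual and 7.98 prior degrees of freedom. Adjusted p-values come from its two-sided moderated tests, adjusted by Benjamini-Hochberg across these genes and called under 0.05. The fit was tested on simulated data. The number of arrays limits the precision, and array median intensities ran from 273 to 312.

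The members and gene lists were chosen with earlier results of these data known, and list counts are descriptions. Genes named with values were the 8 largest rises and falls among called members per genotype comparison and 4 per time comparison, the like-named, stalk and dim members, Rpl5, and up to 2 rises and 2 falls per list. Alternatives covered the offset, the filter, the scaling between arrays, the variance model, array weights, the probe sets, the arrays in the fit, a 2-fold requirement and the replicate block. The labels do not say whether replicate numbers pair the samples, and the fit reported above took them as unpaired. Same-numbered arrays had deviations with correlations from -0.456 to 0.454. The largest, 0.454, 0.343 and 0.33, were all of replicate 2, among wild type at both times and knockout at 30 h. These values do not settle whether arrays were paired.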

Additional observations from a re-analysis of the deposited data

Results flagged for a closer look

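The genotype effect differed between 30 h and 18 h in 3 of 60 genes by the interaction test of limma, 1 higher at 30 h and 2 lower. Over all genes tested, 10.2% were called higher and 10.1% lower. For Rpl12 the effect changed by -0.93, for Rpl22 by -0.47 and for Rpl7l1 by 0.40 on the log2 scale (adjusted p = 0.0475, 0.0182 and 0.0369). In 36 of 60 genes the 30 h to 18 h value in knockout was negative, where it was in 6530 of all 13956 genes tested. All knockout arrays of Rpl22 were lower at 30 h than at 18 h, while those of Rpl7l1 were all higher. The Rpl12 knockout arrays at 18 h spanned 666 to 1591 and overlapped those at 30 h. The Rpl22 call was lost without wild-type replicate 1 or 3 at 30 h or knockout replicate 3 at 18 h (adjusted p = 0.0522, 0.0545 and 0.0541). Of the 12 settings that leave out 1 array, the Rpl7l1 call was lost in 9 and the Rpl12 call in 10.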

How the results depend on the processing

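The median log2 difference of the ribosomal protein genes in knockout against wild type kept its sign in every alternative run, from 0.25 to 0.41 at 18 h and from 0.13 to 0.23 at 30 h. That of time in knockout changed sign, from -0.10 to 0.05, and the interaction median ran from -0.23, with 2 arrays left out, to -0.02. Counts follow as genes called higher or lower, with the value of the fit reported above in brackets. For knockout at 18 h, higher (41) was 1 with a 2-fold change required and 30 to 47 with single arrays left out. Lower (1) was 0 with array medians set equal or a 2-fold change, 3 with cyclic loess, 2 with array weights or the mean of all probe sets, and 0 to 2 with single arrays left out. At 30 h, higher (29) was 18 with array medians set equal, 0 with a 2-fold change and 16 to 34 with single arrays left out. Lower (1) was 4 with cyclic loess, 2 with array weights, 0 to 1 with single arrays left out, and 0 with an offset of 1, no filter, quantile scaling, medians set equal, no intensity trend, only the arrays compared or a 2-fold change. With the replicate block the 18 h counts were 41 and 1 and the 30 h counts 28 and 0. Under that block the 30 h calls of Rpl32l and Rps19bp1 were lost (adjusted p = 0.057 and 0.0586), and no other count of ribosomal protein genes moved by over 1.5 times. For time in wild type, higher (0) was 2 with array weights, 1 with only the arrays compared and 0 to 2 with single arrays left out, and lower stayed 0 in these. For time in knockout, higher (1) was 2 with the 50th percentile filter or only the arrays compared, 8 with array weights, 0 with a 2-fold change and 1 to 4 with single arrays left out. Lower (3) was 6 with cyclic loess, 14 with array weights, 1 with only the arrays compared, 0 with a 2-fold change and 1 to 8 with single arrays left out. For the interaction, higher (1) was 0 with quantile scaling, medians set equal, cyclic loess, no intensity trend or a 2-fold change, and 0 to 1 with single arrays left out. Lower (2) was 1 with no filter, no intensity trend or robust eBayes, 16 with array weights, 0 with a 2-fold change and 0 to 5 with single arrays left out. With knockout replicate 1 and wild-type replicate 3 at 18 h both left out, a setting chosen after seeing the data, 48 were higher at 18 h, 6 higher for time in wild type, 7 lower for time in knockout and 20 lower for the interaction. The cause of these changes was not tested. Quantile scaling moved the calls over all genes at 18 h from 26.3% higher and 33.8% lower to 30.6% and 30.0%. Of the values of named genes, 1072 stayed on their side of the threshold, 13 passed it in an alternative only and 108 no longer passed it, with no change of sign of a called value.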
